A study of Sus scrofa with 92 samples.

Results

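Potassium channel genes were taken from a pig expression atlas as the genes whose symbol begins with KCN and that reached 1 FPKM (fragments mapped to a transcript, relative to its length and to the size of the library) or more in at least 3 of 83 single-tissue libraries. Of 68 genes with such a symbol, 49 met this rule, among 25322 gene IDs measured and 11804 that carry a symbol. The levels themselves therefore chose the members, and statements on where a member is high are descriptions without a test. The libraries came from pigs of 60 days of age, 1 library per breed and tissue. Heart, kidney, liver, subcutaneous adipose and ovary had 9 libraries each, psoas major muscle (a loin muscle beneath the spine), longissimus dorsi muscle (the back muscle of the chop) and spleen had 10 each, and lung had 8. In 9 further libraries several tissues of a breed had been mixed, and which tissues went in is not given in the sources used here. The Chinese breeds were Meishan, Jinhua, Bamei, Rongchang and Tibetan wild boar, and the Western breeds were Large White, Landrace, Piétrain, Hampshire and Berkshire, a grouping from general knowledge. A single animal per breed, several animals and pools cannot be told apart from the labels. P-values measure the spread between breeds, of levels where origins are compared and of differences within a breed where tissues are compared.

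Potassium channels let potassium ions leave or enter a cell and thereby set its resting voltage and end its electrical impulses. Voltage-gated pore subunits (KCNA to KCND, KCNH, KCNQ) open on depolarisation, and inward rectifiers (KCNJ) hold the resting potential. Tandem-pore channels (KCNK) carry background current, and calcium- or sodium-activated channels (KCNMA, KCNN, KCNT) follow internal ions. Accessory subunits (KCNE, KCNIP, KCNMB, KCNAB) and electrically silent subunits (KCNG, KCNS) alter the pores they join. Heart muscle depends on several of these currents to repolarise after each beat, and kidney tubules use them to secrete and recycle potassium.

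Summed FPKM per library ran from 519075 to 2196138, and 10175 to 14561 genes reached 1 FPKM. Levels below are FPKM scaled between libraries by median ratios, written as scaled FPKM. Since no read counts were used, the counting error of a low value is unknown. The most frequent ratio of low values between pairs of libraries gave relative depths from 0.726 in an ovary library to 1.39 in a longissimus dorsi library, against the median library. Apart from the atrial list of heart, median sums of the markers of a tissue's own cells were highest in that tissue. Still, single defining markers were absent. ALB is listed at 0 in all 9 livers, against a mean of 66.3 scaled FPKM in adipose, and ACTA1 is listed at 0 in 6 of 10 psoas major and 9 of 10 longissimus dorsi libraries, against a mean of 9600 in heart. The other 5 hepatocyte and 5 skeletal muscle markers that were matched were above 0 in every library of their tissue. In heart, ventricular markers (2 of 4 matched) summed to 7571 to 11970 scaled FPKM, against 16.5 to 133 for atrial markers (3 of 5 matched). The median atrial sum was 61.1 in heart, against 6839 in psoas major and 8708 in longissimus dorsi. SLN, 1 of the atrial markers, was highest in skeletal muscle. Ovary of Meishan stood apart with an oocyte and granulosa marker sum of 322 (5 of 6 matched), against 983 to 1390 in the other 8 ovaries. Adipose of Meishan held a skeletal muscle marker sum of 5116 (6 of 8 matched), against 86.1 to 1487 in the other 8 adipose libraries. With Meishan left out of the tissue fit, all 25 members called in a tissue class below were still called. In bulk tissue, fewer cells of a type and less RNA per cell cannot be told apart.

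The 49 members spread over 19 families. All 4 KCNIP, all 4 KCNN and all 3 KCND, KCNG and KCNMB genes with a symbol met the rule, against 2 of 5 KCNA, 2 of 6 KCNH, 6 of 9 KCNJ and 6 of 10 KCNK genes. Breadth differed widely. Columns at 1 FPKM lay in 1 tissue alone for 17 members and in both skeletal muscles alone for 2, KCNC1 and KCNC4, while 3 members reached 1 FPKM in some column of every tissue. KCNJ8, the pore of the ATP-sensitive channel of vessels and heart, was the single member at 1 FPKM in all 83 columns. Just inside the rule stood KCNS1, KCNK4 and KCNC2 with 3 columns each, KCNMB3 with 5 and KCND1 with 6. Just outside stood KCNH7 with 1 column, then KCNAB2, KCNB2, KCNQ3 and KCNV1 with 0, whose third-highest values ran from 0.508 to 0.753 FPKM.

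The highest tissue mean of a member ran from 0.531 (KCNS1 in ovary) to 122 scaled FPKM (KCNJ4 in heart). It was 10 or more for 17 members and under 2 for 13. By tissue, 15 members had their highest mean in ovary, 8 in a skeletal muscle, 7 in heart, 6 in kidney, 5 in lung, 3 each in liver and spleen and 2 in adipose. Of the 15 ovary members, 8 had an ovary mean under 2 scaled FPKM. The rule used unscaled FPKM, and the median scaling factor was 1.63 in ovary and 0.627 in psoas major. A gene could therefore meet the rule at a lower scaled level in ovary than in muscle, which bears on these counts.

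**Figure D1:**
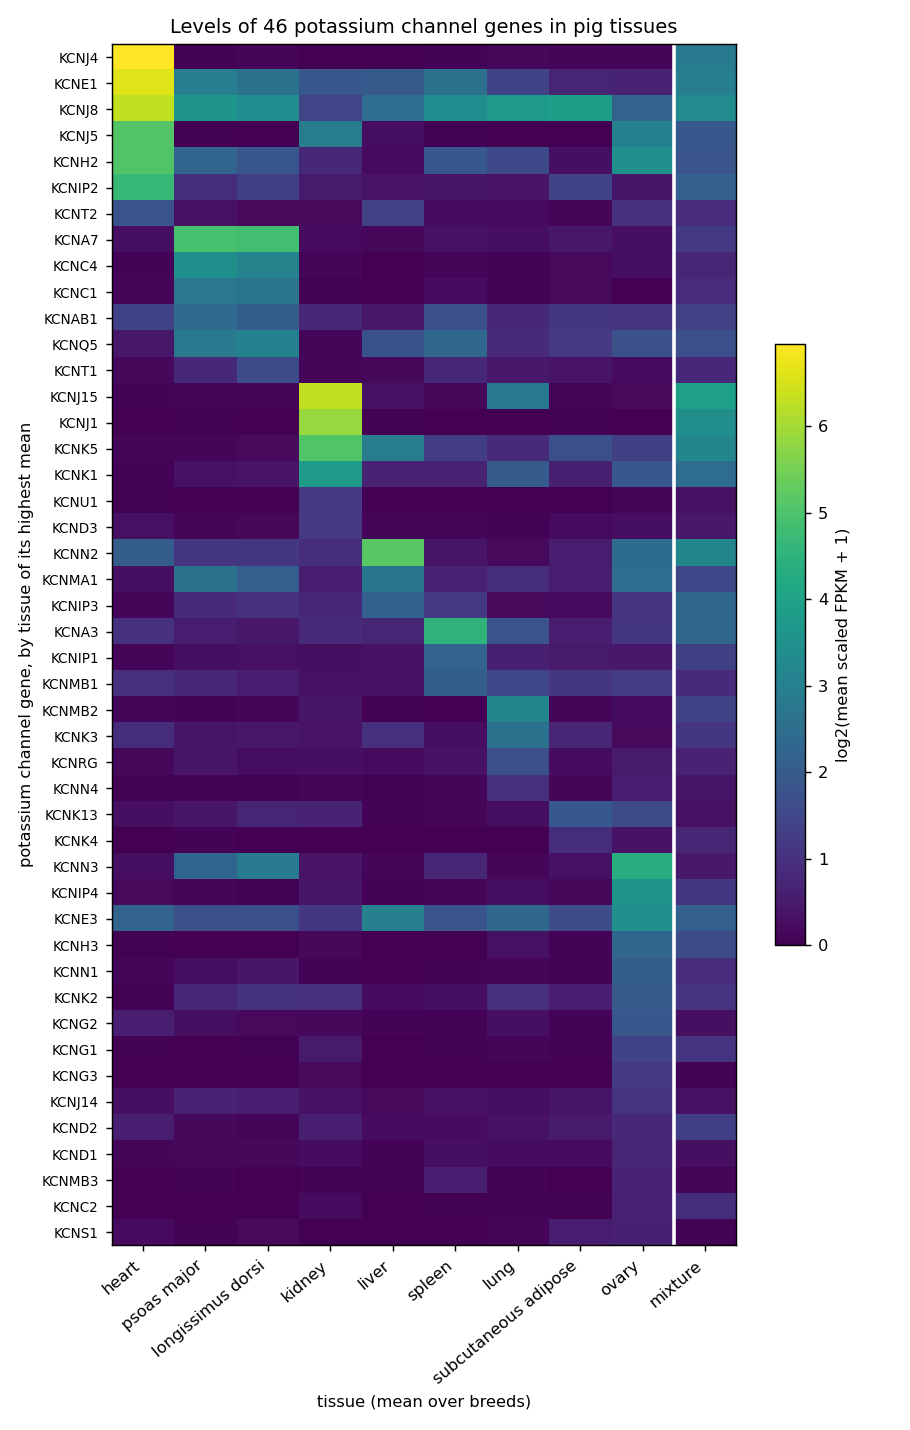
Mean level of 46 of the 49 potassium channel genes (rows, grouped by the tissue of the highest mean) in 9 tissues and in the mixtures (columns), as log2 of mean scaled FPKM plus 1 over 8 to 10 breeds. The brightest cells are KCNJ4, KCNE1 and KCNJ8 in heart and KCNJ15 and KCNJ1 in kidney.

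The summed level of all members was highest in heart, at 404 ± 42.6 scaled FPKM (SD, n = 9). Kidney followed with 207 ± 30.7 (SD, n = 9), psoas major with 124 ± 19.4 (SD, n = 10), ovary with 110 ± 7.30 (SD, n = 9) and longissimus dorsi with 103 ± 15.1 (SD, n = 10). Heart did not overlap any other tissue, its lowest library being 331 and the highest kidney 253. The order below kidney depends on the scaling. On unscaled FPKM ovary, at 180 ± 12.6 (SD, n = 9), came after kidney, at 254 ± 32.4 (SD, n = 9). Lung (92.7 ± 10.21, SD, n = 8) and spleen (88.3 ± 15.5, SD, n = 10) then stood above psoas major (78.1 ± 15.96, SD, n = 10) and longissimus dorsi (65.5 ± 14.7, SD, n = 10). On scaled FPKM, below these lay liver at 74.9 ± 13.9 (SD, n = 9), spleen at 65.0 ± 12.0 (SD, n = 10), lung at 61.1 ± 6.77 (SD, n = 8) and adipose at 42.9 ± 8.24 (SD, n = 9). A few genes made up most of the sum in heart and kidney: KCNJ4, KCNE1 and KCNJ8 gave 30.3%, 23.8% and 19.2% of it in heart, and KCNJ15, KCNJ1 and KCNK5 gave 37.8%, 27.7% and 15.6% in kidney. Ovary had the smallest share for its first gene among the 9 tissues, 17.4% for KCNN3, and 20 members at 1 FPKM or more, before scaling, in every library.

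Heart held the highest level of inward rectifiers. KCNJ4, a strong inward rectifier that holds the resting potential, had 59.4 (Large White), a median of 105 and 211 scaled FPKM (Piétrain) as its lowest, middle and highest heart values. The highest value in any other tissue was 0.273, in a psoas major, and the mixtures held 2.19 to 10.6. Every heart lay above every other library for this gene, and the spread among hearts was wide. KCNJ8 ranged from 43.3 to 98.4 scaled FPKM in heart (median 81.5), against a range of 8.71 to 19.97 in adipose, the next tissue. Its partner ABCC9, the sulfonylurea receptor subunit of the same channel, was less confined, at 27.1 ± 6.69 in heart (SD, n = 9), 21.9 ± 4.19 in psoas major (SD, n = 10) and 19.7 ± 4.05 in longissimus dorsi (SD, n = 10). KCNJ5, a subunit of the G protein-gated channel through which acetylcholine slows the heart, ranged from 21.1 to 44.8 scaled FPKM in heart. It ranged from 5.68 to 7.51 in kidney. In ovary it was 24.0 in Meishan and 2.30 to 6.95 in the other breeds. Other inward rectifier genes, KCNJ2 and KCNJ12 among them, were not analysed here.

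The repolarising currents of heart were represented by KCNE1, KCNH2 and KCNIP2. KCNE1, the accessory subunit of the slow delayed rectifier, had a lowest value of 54.4, a median of 98.5 and a highest of 133 scaled FPKM in heart, with 20.97 as the highest value of any other tissue, in psoas major of Jinhua. KCNH2, the pore of the rapid delayed rectifier, ranged from 22.1 to 47.3 in heart (median 29.2), from 7.85 to 13.7 in ovary and from 1.44 to 6.15 in psoas major. KCNIP2, the calcium-binding partner of KCND pores in the transient outward current, ranged from 8.49 to 41.0 in heart (median 24.6) and reached 6.63 in adipose of Rongchang. The KCND pores were low beside it. KCND2 averaged 0.498 ± 0.552 and KCND3 0.234 ± 0.138 scaled FPKM in heart (SD, n = 9), and KCND3 had its highest mean in kidney, 1.23 ± 0.287 (SD, n = 9). KCNT2, a sodium-activated channel, fell into separate ranges among hearts: 0.474 to 0.720 scaled FPKM in the 3 libraries of Berkshire, Hampshire and Landrace and 2.69 to 4.24 in the 6 others.

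Skeletal muscle carried another set of voltage-gated pores. KCNA7, a muscle member of the Shaker family, ranged from 16.7 to 38.4 scaled FPKM in psoas major (median 30.1) and from 14.5 to 36.7 in longissimus dorsi (median 28.0). In single tissues other than muscle its highest value was 1.88, in adipose of Meishan with its high muscle marker sum, and the next was 0.542, in a lung. KCNC4 and KCNC1, voltage-gated pores of the Shaw family, averaged 9.92 ± 4.27 and 5.80 ± 4.66 in psoas major against 7.64 ± 6.38 and 5.44 ± 5.25 in longissimus dorsi (SD, n = 10 each). KCNC1 differed by breed in both muscles. It was 14.5 and 13.6 in Berkshire and 11.73 and 10.02 in Hampshire (psoas major given before longissimus dorsi), against 1.11 and 1.02 in Jinhua. Bamei had 5.28 in psoas major and 14.1 in longissimus dorsi, so the muscles of 1 breed did not always go together. KCNAB1, a cytoplasmic subunit that speeds inactivation of KCNA pores, averaged 4.37 ± 2.86 in psoas major (SD, n = 10).

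Kidney was set apart by KCNJ1, the secretory channel of the distal nephron, which ranged from 44.7 to 71.3 scaled FPKM (median 60.1) with 0.144, in a psoas major, as the highest value in another tissue. KCNJ15 ranged from 53.5 to 127 (median 76.9) in kidney and from 4.14 to 9.81 in lung, its next tissue. KCNK5, an alkaline-activated tandem-pore channel of tubules, ranged from 17.04 to 50.74 in kidney (median 30.6) and from 2.25 to 10.9 in liver, so the groups did not overlap. KCNK1, another tandem-pore channel, ranged from 6.88 to 17.7 in kidney, and the Meishan ovary, at 7.68, lay within that range. KCNU1, known as a sperm channel in mice and humans, averaged 1.23 ± 0.688 in kidney (SD, n = 9), from 0.0752 in Meishan to 2.10 in Bamei. Of the kidney salt transport genes, SLC12A1, BSND and SCNN1G were also called in kidney by the rule for tissue classes given below, 3 of 8 tested, against 2.72% of all genes. Among single tissues SLC12A1 and BSND reached 1 scaled FPKM in kidney alone, so nothing is read from this count.

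In liver the leading member was KCNN2, a small-conductance calcium-activated channel, at 24.0 to 53.9 scaled FPKM (median 31.5), or 46.4% of the summed level there. KCNE3, an accessory subunit of epithelial channels, ranged from 3.75 to 11.3 in liver and from 3.98 to 14.1 in ovary, so these overlapped. KCNMA1, the large-conductance calcium-activated pore, averaged 5.47 ± 2.73 in liver (SD, n = 9), 5.10 ± 3.75 in psoas major (SD, n = 10) and 4.58 ± 1.2 in ovary (SD, n = 9), an order within the spread. KCNIP3, a calcium-binding protein known both as a channel partner and a transcriptional repressor, varied from 0.345 in Bamei to 8.18 in Rongchang.

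Spleen was led by KCNA3, the channel of T lymphocytes, at 11.4 to 35.5 scaled FPKM (median 22.2), against 1.35 to 5.85 in lung. Lymphocyte markers (4 of 6 matched) summed to 298 to 414 in spleen and 52.7 to 129 in lung, the next tissue for both. KCNIP1 and KCNMB1 also had their highest means in spleen, 3.66 ± 1.97 and 3.14 ± 1.32 (SD, n = 10). These 2 genes overlap on the reference annotation, so their reads may not be told apart. KCNMB1, the smooth muscle subunit of the large-conductance channel, was highest in Tibetan wild boar (5.64) and Hampshire (5.05) and lowest in Meishan (1.51), and the smooth muscle marker sum (7 of 8 matched) was 1462, 1143 and 551 in the same libraries. Large White and Landrace, with sums of 1187 and 1146, had KCNMB1 at 2.96 and 2.06, so the order was not the same throughout. The part of smooth muscle in the result was not tested.

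Lung had KCNMB2, an inactivating subunit of the large-conductance channel, at 3.97 to 12.1 scaled FPKM (median 7.86), and in each of the other tissues its mean was 0.331 or less. KCNK3, an acid-sensitive tandem-pore channel of pulmonary artery smooth muscle, ranged from 2.49 to 7.01 in lung. The lowest value came from Hampshire, whose smooth muscle marker sum was also the lowest, 247 against 282.5 to 730 in the other 7 lungs, as was its endothelial marker sum, 167.7. Bamei, with the next smooth muscle sum, 282.5, had KCNK3 at 4.84, and Large White, with 509.6, had 3.86, the second lowest. The part of these cells in the result was not tested. KCNRG, a regulator of channel assembly, averaged 2.22 ± 0.468 in lung (SD, n = 8). KCNN4, the intermediate-conductance channel of blood cells and epithelia, averaged 0.911 ± 0.330 (SD, n = 8).

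Ovary held many members at low level and a few at high level. KCNN3, a small-conductance calcium-activated channel, was 7.56 in Meishan and 14.25 to 26.0 scaled FPKM in the other 8 ovaries. KCNIP4, a calcium-binding channel partner, ranged from 2.40, again in Meishan, to 22.6 in Large White. KCNH3, a brain channel of the Elk type in other mammals, ranged from 2.60 to 5.02, and its mean was 0.247 or less in each of the other tissues. KCNN1 averaged 3.12 ± 1.31 and KCNG2, a silent subunit, 2.72 ± 1.68 (SD, n = 9 each). All 3 KCNG genes had their highest mean in ovary. Of the pacemaker genes, HCN4 was the 1 tested, and it was called in ovary (5.59% of all genes). It averaged 1.79 ± 0.432 there (SD, n = 9), against 0.0417 ± 0.0421 in heart (SD, n = 9). Its highest value in any other single tissue was 0.144, in a lung. It thus passed the filter on low values through ovary alone, so nothing is read from the call.

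The leading member in adipose was KCNJ8, with 32.6% of the summed level there, though its highest mean was in heart. KCNK13 and KCNK4 had their own highest means in adipose. KCNK13, a tandem-pore channel, was at 0.932 to 5.29 scaled FPKM, and overlapped ovary, where it ranged from 1.49 to 2.485. KCNK4, a stretch-sensitive tandem-pore channel, was at 0.435 to 1.46 in adipose.

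A gene was called in a tissue class when its level there exceeded that of all 7 other classes one by one, both muscles counting as 1 class, at an adjusted p below 0.05 and a log2 difference above 1 throughout (limma, breed as block). Of the 49 members, 44 passed the filter on low values, and 25 of the 44 were called, against 23.4% of all 16893 genes tested. Because the rule asked for a level in a few columns, members found in 1 tissue had to differ, and nothing is read from this count. The calls fell on heart for 6 members (1.39% of all genes), ovary for 5 (5.59%), kidney for 4 (2.72%), skeletal muscle for 4 (2.49%), lung for 3 (1.49%), spleen for 2 (2.96%), liver for 1 (5.06%) and adipose for 0 (1.73%). The smallest log2 difference to any other class was 6.72 for KCNJ4 in heart, 5.82 for KCNJ1 in kidney, 4.45 for KCNA7 in skeletal muscle and 4.13 for KCNE1 in heart. It was 2.90 for KCNIP4 in ovary, 2.78 for KCNA3 in spleen and 2.71 for KCNMB2 in lung.

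Heart and skeletal muscle are both striated and excitable, and their channel genes were compared within breeds. In 9 breeds with heart and both muscles, 22 of 24 tested members were called, against 64.8% of all 13537 genes tested (limma, Benjamini-Hochberg adjustment over all genes). In heart 10 were higher, against 32.2% of all genes, and 12 lower, against 32.7%. The median log2 difference was -0.24 over the 24 members and -0.0043 over all genes. KCNJ4, KCNA7, KCNC1 and KCNC4 met the rule through heart or through muscle, with at most 1 column at 1 FPKM elsewhere, so their differences are descriptions and are given without a p. The fit also asked for 1 scaled FPKM in at least 3 of its libraries. KCNJ5 and KCNT2 reached that level in heart alone, and others, KCNQ5, KCNN3 and KCNMA1 among them, in muscle alone. Their differences are descriptions too. Such members are among the 22, so nothing is read from these counts. Ranges given for the muscles are over all 20 muscle libraries. Of all calls, 49.6% were higher in heart. On unscaled FPKM that share was 80.45% and the median 0.32 over all genes and 0.0016 over the members, and 10 members were then higher and 9 lower.

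Among members higher in heart, KCNJ5 had 21.1 to 44.8 scaled FPKM in heart, against 0 to 0.0638 in the muscles. Its log2 difference was 5.01 ± 0.12 (SE, 9 of 9 breeds). KCNE1 was 4.43 ± 0.42 higher on the log2 scale (adjusted p = 7.46e-06, limma), from 54.4 to 133 scaled FPKM in heart and 0 to 20.97 in the muscles. KCNIP2 was higher by 3.597 ± 0.178, KCNH2 by 3.22 ± 0.15 and KCNJ8 by 2.80 ± 0.19, each in 9 of 9 breeds and with groups that did not overlap. The share of all genes without overlap was not counted. KCNJ4 differed by 6.76 ± 0.15. KCNT2 was 1.36 ± 0.21 higher and KCNN2 0.92 ± 0.11 higher, both in 9 of 9 breeds. KCNA3 and KCNE3 were higher by 0.46 ± 0.09 and 0.43 ± 0.14, in 8 and 7 of 9 breeds. With Meishan left out KCNA3 no longer passed the filter, and without breed as a block KCNE3 had an adjusted p of 0.0943.

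Among members lower in heart, KCNA7 had 0.115 to 0.450 scaled FPKM in heart, against 14.5 to 38.4 in the muscles, a log2 difference of -4.53 ± 0.11 (SE, 9 of 9 breeds). KCNQ5, a voltage-gated channel of muscle and brain, was at -2.43 ± 0.13, KCNN3 at -2.26 ± 0.12 and KCNMA1 at -2.01 ± 0.12, each in 9 of 9 breeds. KCNC4 and KCNC1 differed by -3.08 ± 0.21 and -2.28 ± 0.32. Smaller differences were those of KCNK2, KCNIP3, KCNT1 and KCNAB1, from -0.90 to -0.77. KCNAB1, lower in 6 of 9 breeds, had an adjusted p of 0.0675 on unscaled FPKM. KCNK3 and KCNMB1, at 0.42 ± 0.18 and 0.29 ± 0.13, missed the threshold with adjusted p of 0.0545 and 0.0650 (limma).

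**Figure D2:**
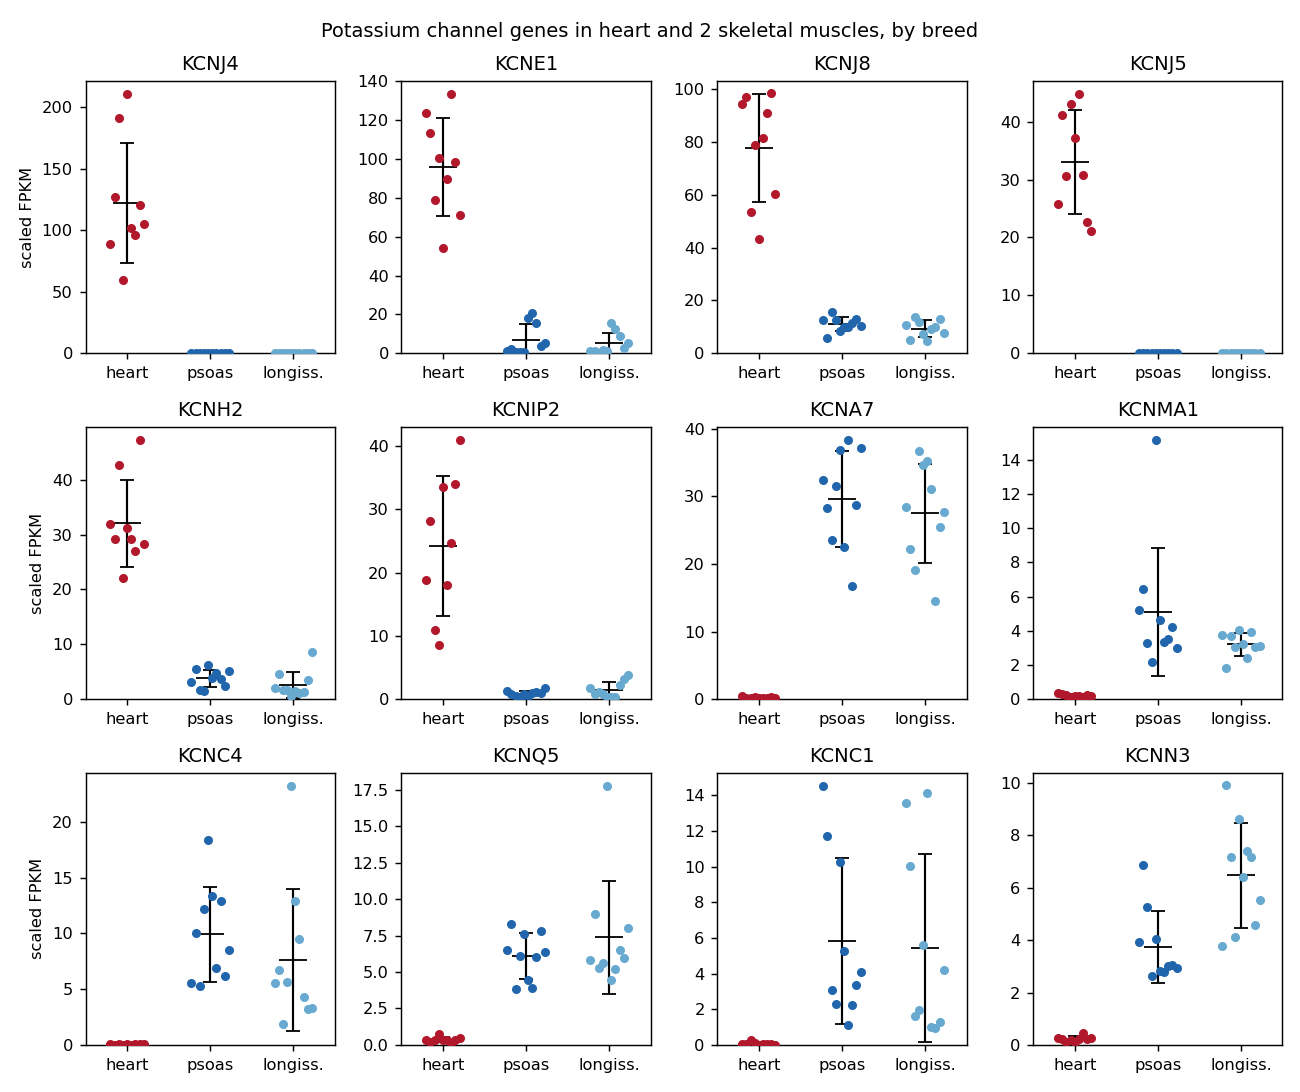
Scaled FPKM (linear axes, 1 point per breed) of 12 potassium channel genes in heart (9 breeds), psoas major and longissimus dorsi (10 breeds each), with the mean and SD as black bars. The first 6 panels sit high in heart, from KCNJ4 at 59.4 to 211, and the last 6 sit high in muscle, with KCNA7 in heart at 0.450 or less.

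Other genes of excitability split in the same comparison, in which 32.2% of all genes were higher in heart and 32.7% lower. All 5 tested genes of skeletal muscle excitability were lower in heart. Among them were the sodium channel SCN4A at -4.87 ± 0.11 and the calcium channel CACNA1S at -7.23 ± 0.10 on the log2 scale. In this comparison SCN4A and CACNA1S reached 1 scaled FPKM in muscle alone, so nothing is read from this count. Of 5 tested heart sodium and calcium current genes, 3 were higher in heart and 2 lower. RYR2, the calcium release channel of heart muscle, was 5.98 ± 0.08 higher and CACNB2, a calcium channel subunit, 3.09 ± 0.07 higher, while CACNA2D1, another calcium channel subunit, was at -1.78 ± 0.14 on the log2 scale. Of 5 sodium-potassium pump genes 2 were higher and 3 lower, with the beta subunit ATP1B1 at -0.32 ± 0.11. Of 3 tested channel partners ABCC9 was higher, by 0.30 ± 0.07, and AKAP9 and LRRC38 lower.

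Within skeletal muscle, psoas major differed from longissimus dorsi in 4 of 18 tested members, against 26.5% of 13022 genes (limma, breed as block). Of these 2 were higher (11.5% of all genes) and 2 lower (15%), and 7 had an unadjusted p below 0.05 (38.5%). A sodium-activated and a calcium-activated channel were lower in psoas major. KCNT1 ranged from 0.171 to 1.67 scaled FPKM in psoas major (median 0.687), against 0.685 to 5.74 in longissimus dorsi (median 1.75). It was lower in 10 of 10 breeds, by a log2 difference of -0.77 ± 0.11 (SE). KCNN3 ranged from 2.65 to 6.85 in psoas major (median 3.03), against 3.77 to 9.90 in longissimus dorsi (median 6.79), lower in 9 of 10 breeds at -0.66 ± 0.11 (adjusted p = 0.00123, limma). The ranges of both genes overlapped between the muscles. KCNT1 met the rule through longissimus dorsi and spleen, with no psoas major library at 1 FPKM. Its psoas major libraries alone would not have passed the filter of the fit either. Its difference was therefore partly set by the choice of members, and is a description given without a p.

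KCNJ8 was among those higher in psoas major, at 5.97 to 15.7 scaled FPKM in psoas major and 4.69 to 13.7 in longissimus dorsi, with a log2 difference of 0.24 ± 0.08 and an adjusted p of 0.0451 (limma, 9 of 10 breeds). This call did not hold on unscaled FPKM (0.0583), without the filter (0.0670), without breed as a block (0.498), or with any 1 of 8 breeds left out, where adjusted p ran from 0.0590 to 0.0787. The most abundant muscle member, KCNA7, had an adjusted p of 0.404 at a log2 difference of 0.11 ± 0.09, and KCNC4 one of 0.0574 at 0.52 ± 0.19. Of the skeletal muscle excitability genes 4 of 5 were lower in psoas major, against 15% of all genes, with CACNA1S among them at -0.46 ± 0.13. Of the sodium-potassium pump genes ATP1B1 was higher in psoas major, by 0.42 ± 0.08.

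**Figure D3:**
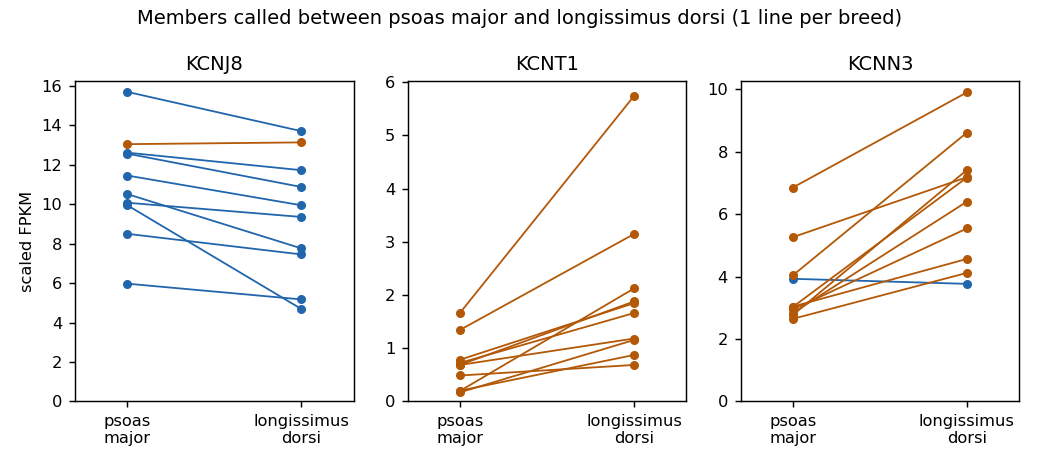
Scaled FPKM of 3 members called between psoas major (left) and longissimus dorsi (right), with a line for each of 10 breeds, blue where psoas major is higher and brown where it is lower. Every KCNT1 line climbs towards longissimus dorsi, and 9 of 10 KCNN3 lines climb.

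Between Chinese and Western breeds, over the 8 tissues other than lung, 0 of 41 tested members were called, against 0.318% of 16675 genes (limma, 4 Chinese and 5 Western breeds with all 8 tissues). An unadjusted p below 0.05 was found for 2 of them, against 8.34% of all genes. These were KCNE1, at a log2 difference of 0.55 ± 0.17 with an adjusted p of 0.353 (limma), and KCNG2 at 0.11 ± 0.05 with one of 0.594. Within single tissues 132 pairs of a member and a tissue were tested, 0 were called, against 0.125% of all pairs of a gene and a tissue, and 10 had an unadjusted p below 0.05, against 6.64%.

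KCNE1 gave the largest log2 difference between origins among the 132 pairs, and it lay in both skeletal muscles. Psoas major held 18.4 in Bamei, 21.0 in Jinhua, 15.4 in Meishan, 3.83 in Rongchang and 5.10 scaled FPKM in Tibetan wild boar. Western psoas major held 1.16 in Berkshire, 2.18 in Hampshire, 0.633 in Landrace, 0.847 in Large White and 0.714 in Piétrain. In longissimus dorsi the Chinese breeds had 15.7, 12.3, 9.04, 2.94 and 5.33 in the same order, against 1.31, 1.24, 0, 1.55 and 1.37 in the Western breeds. Every Chinese muscle library was above every Western one of the same muscle, and Bamei, Jinhua and Meishan were the highest in both muscles. The share of all genes with the origins apart in this way was not counted, so nothing is read from the separation. Landrace longissimus dorsi is listed at 0.

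The log2 difference was 2.502 ± 0.42 in psoas major (adjusted p = 0.0818, limma, 0.032% of 12483 genes called) and 2.16 ± 0.39 in longissimus dorsi (adjusted p = 0.108, limma, 0.104% of 12486 genes called). It was 2.33 ± 0.39 over the mean of both muscles, a comparison chosen after the values were seen (adjusted p = 0.0592, limma, 0.115% of 13022 genes called). None of these passed the threshold. With Rongchang left out, longissimus dorsi passed (adjusted p = 0.0252, limma) and so did the mean of both muscles (0.0153), while psoas major did not (0.0559). In heart, where KCNE1 is most abundant, Chinese breeds had 71.3 to 133 and Western breeds 54.4 to 124, and the ranges overlapped in the 7 tissues other than the muscles. Whether the origin difference itself differs between tissues was not tested. The cardiomyocyte marker sum in psoas major (5 of 6 matched) was 1392 to 4386 in Chinese breeds and 897 to 1992 in Western breeds. In longissimus dorsi it was 635 to 2912 in Chinese breeds and 708 to 1415 in Western breeds. Rongchang had the lowest of these longissimus values with KCNE1 above all Western breeds. The sum in muscle was mostly MYH6, with a mean of 1805 scaled FPKM in psoas major. Among single tissues other than heart, the highest mean was 22.1 for TNNT2, 12.0 for MYBPC3, 2.31 for NEBL and 1.66 for RYR2. The sum therefore does not show whether cardiac genes as a set differ by origin. The part of MYH6 or of other cardiac-type transcripts in the result was not tested.

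**Figure D4:**
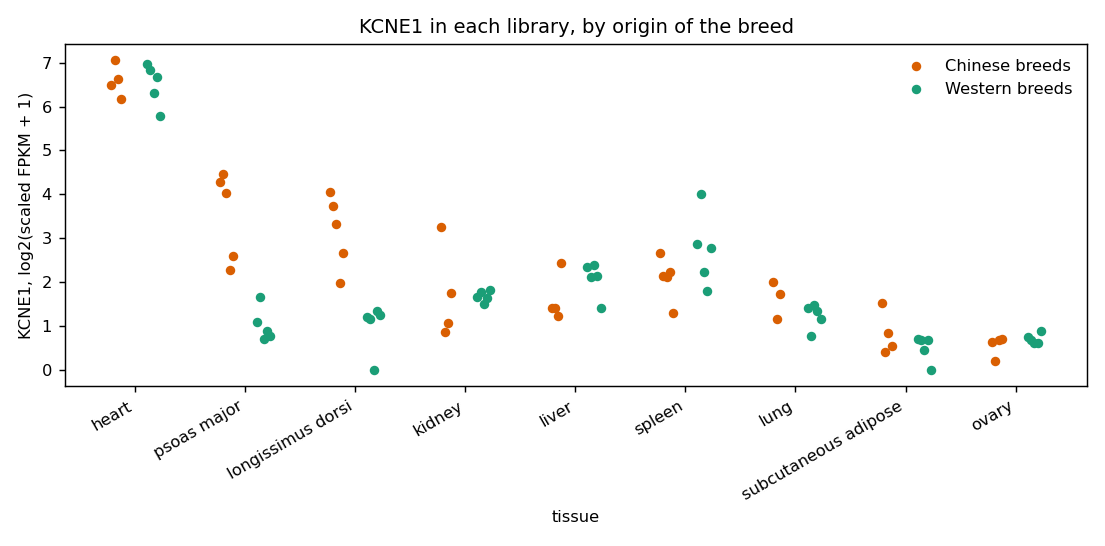
KCNE1 as log2 of scaled FPKM plus 1 in every single-tissue library, with Chinese breeds (orange, left) and Western breeds (green, right) side by side in each tissue. The origins are apart without overlap in psoas major and longissimus dorsi and overlap in the other 7 tissues. How many of all genes are apart in this way was not counted.

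Besides KCNE1 in both muscles, 8 pairs had an unadjusted p below 0.05. KCND3 in kidney was 0.8311 to 1.202 scaled FPKM in Chinese breeds and 1.28 to 1.72 in Western breeds. KCNG2 in ovary averaged 3.997 ± 1.688 in Chinese breeds (SD, n = 4) and 1.69 ± 0.735 in Western breeds (SD, n = 5). KCNT2 in heart was 2.98 to 4.24 in Chinese breeds and 0.474 to 3.55 in Western breeds. The other pairs included KCNJ1 in kidney, KCNJ8 in ovary, KCNN3 in psoas major and KCNRG in lung.

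In the 8 breeds with all 9 tissues and a mixture, 32 of 45 tested members were called against the mean of the breed's 9 tissues, against 65.4% of 16970 genes (limma, paired by breed). Of these, 16 were higher and 16 lower in the mixture, where 17.7% of all genes were higher and 47.7% lower. The median log2 difference was 0.08 over the members and -0.14 over all genes. The rule used the single-tissue levels and not the mixtures, so the tissue side of each difference helped to choose the members.

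KCNIP3 had the largest positive difference. It was 3.17 to 4.96 scaled FPKM in the mixtures, against 0.485 to 1.39 for the mean of the tissues, higher by 1.40 ± 0.10 on the log2 scale (SE, adjusted p = 2.503e-06, limma, 8 of 8 breeds). KCNH3 was 1.29 to 4.10 in the mixtures, against 0.331 to 0.616 in the tissue means, higher by 1.00 ± 0.11. KCND2, a pore of the neuronal transient current, was higher by 0.91 ± 0.10, KCNC2 by 0.81 ± 0.10 and KCNK1 by 0.78 ± 0.10. None of these 5 overlapped between mixtures and tissue means. They were named by the size of their difference, and the share of all genes without overlap was not counted, so nothing is read from this.

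Neuron markers (8 of 12 matched) summed to 59.7 to 222 scaled FPKM in the mixtures, against 62.7 or less in any single-tissue library. Spleen held 28.1 to 62.7, most of it STMN2 at 40.1 ± 11.9 (SD, n = 10), and every other tissue 20.45 or less. Glia markers (5 of 8 matched) summed to 136.6 to 465.8 in the mixtures and reached 294 in psoas major. Bamei had the highest neuron sum, 222, and the highest KCNH3, KCND2 and KCNC2 among mixtures. Rongchang and Meishan had the lowest neuron sums, 59.7 and 62.0, and the lowest KCNC2, 0.214 and 0.270. KCNIP3 and KCNH3 did not follow that order throughout. KCNIP3 was highest in Large White (4.96) and lowest in Piétrain (3.17), with 4.17 in Rongchang, where KCNH3 was 1.87, the third highest. The part of nerve tissue in these differences was not tested. Among genes outside the rule, 3 reached a mean of 1 or more in the mixtures: KCNA1 averaged 1.11 ± 0.415, KCNV1 1.11 ± 0.503 and KCNJ9 1.00 ± 0.378 scaled FPKM (SD, n = 9), with single-tissue means of 0.279 or less.

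Of the 6 members with their highest mean in kidney 5 were called higher in mixtures, where 17.7% of all genes were higher. The share among all genes highest in kidney was not counted. Among the 5 were KCNJ15 by 0.57 ± 0.11, KCNK5 by 0.57 ± 0.09 and KCNJ1 by 0.55 ± 0.14. KCNU1, also among them, was higher by 0.11 (adjusted p = 0.0418, limma), a call lost with single breeds left out, as given below. KCNA7 had the largest negative difference. It was 0.329 to 2.22 scaled FPKM in the mixtures, against 3.82 to 8.08 in the tissue means, at -1.78 ± 0.12 on the log2 scale in 8 of 8 breeds. Its tissue mean rests on the muscles through which it met the rule, so this is a description. KCNN3 was 0.163 to 0.545, against 2.11 to 4.62, at -1.66 ± 0.07. KCNJ4, KCNE1 and KCNH2 were lower at -1.09 ± 0.21, -1.03 ± 0.12 and -1.03 ± 0.13, each in 8 of 8 breeds.

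**Figure D5:**
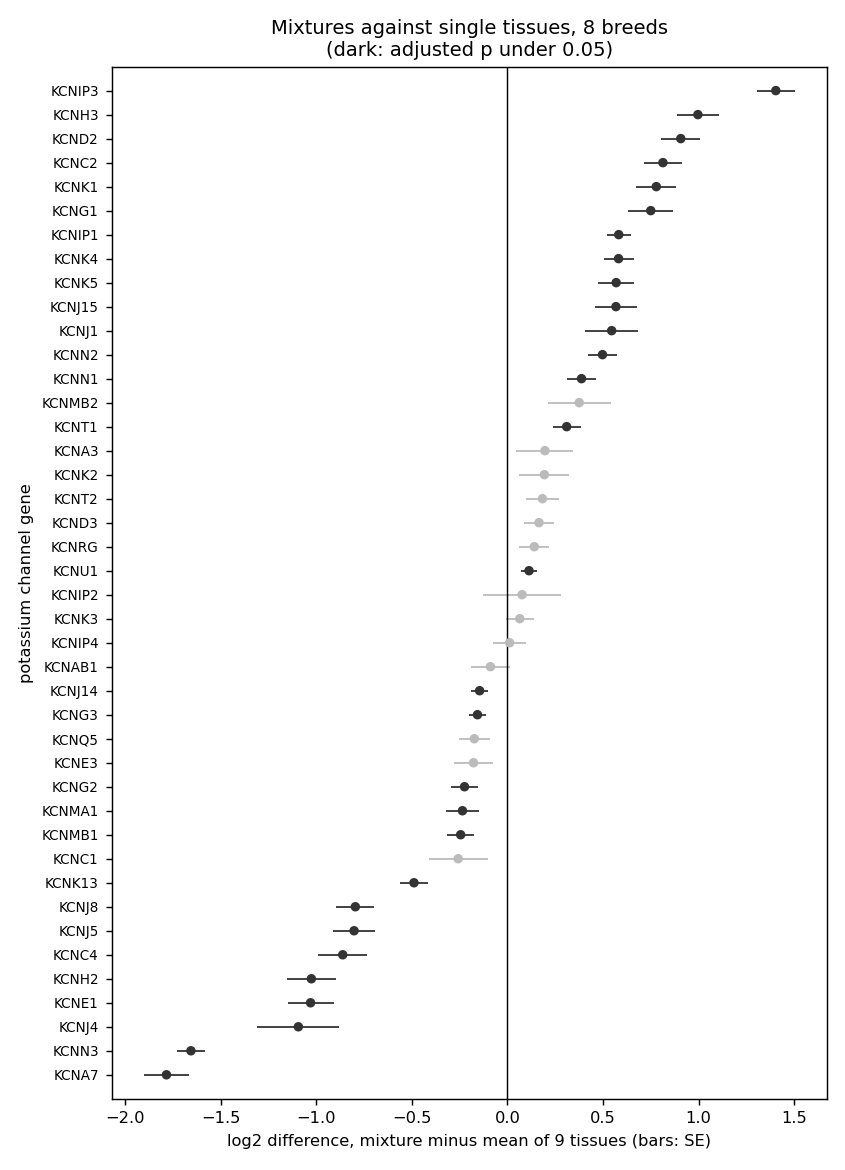
Log2 difference between mixture and mean of 9 tissues (horizontal axis, bars are SE, 8 breeds) for 42 of the 45 tested potassium channel genes, dark where the adjusted p is below 0.05. KCNIP3 stands at the top with 1.40 and KCNA7 at the bottom with -1.78.

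Of the 49 members, all were matched to a RefSeq gene by symbol (assembly Sscrofa11.1, used for names and neighbours alone), and 15 overlap another annotated gene there. A named protein-coding neighbour overlaps 8 of them. These are KCNA7 with NTF4, KCNAB1 with SSR3, KCNIP1 and KCNMB1 with each other, KCNIP4 with PACRGL, KCNK4 with CATSPERZ, KCNN3 with PMVK and KCNRG with TRIM13. The use of strand in counting is not given in the sources used here, so reads of such pairs may be shared and their levels are uncertain.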

How the data were processed

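The authors deposited FPKM per gene, and per the submitters' processing notes TopHat, Cufflinks 2.2.1 and the build Sscrofa10.2 were used. The deposited FPKM were scaled between all 92 libraries at once by median ratios over genes above 0 in every library. Tests used limma 3.58.1 (R 4.3.3, trend and robust options) on log2(scaled FPKM + 1), keeping genes that reached 1 in 3 libraries or more of the fit. Fold changes are on that scale and understate those of low genes. Breed was a block where tissues of the same breeds were compared, since the labels give the breed of each library. P-values were adjusted by the Benjamini-Hochberg method over all genes tested, and the test was checked on simulated data. Named members were the marker KCNJ4, up to 4 called members per tissue class, up to 6 per direction in the other comparisons, the highest of each family and 5 on each side of the rule. Members and gene lists were chosen with earlier results of these data known. Alternatives were unscaled FPKM, scaling per fit, a pseudocount of 0.1, no filter or one at 5 FPKM, no trend and robust options, no block, each breed left out, and a log2 difference above 2. No library pair was identical. Genes without a matched symbol and read counts were not analysed here, and 3 members and some listed genes are counted but their values are not reported here. Figures were drawn with matplotlib 3.10.9.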

Additional observations from a re-analysis of the deposited data

Results flagged for a closer look

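Each of 35 named members was screened for a library far from the others in the tissue of its highest mean, and 3 were marked, where chance alone marks about 1 in 20. KCNN3 in ovary of Meishan was lowest at 7.556 scaled FPKM, against 14.25 to 26.0 in the other 8 ovaries. KCND2 in the same ovary was highest at 2.474, against 0 to 0.846. That library also held the lowest oocyte and granulosa marker sum, 322, and the highest smooth muscle sum, 399 against 147 to 308.5. KCNQ5 in longissimus dorsi of Piétrain was highest at 17.8, against 4.44 to 9.01 in the other 9 libraries.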

How the results depend on the processing

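No result reversed under any alternative that was run. The count of members called in a tissue class was 25 and became 15 with a log2 difference above 2 required, and on unscaled FPKM KCNH2 was among those no longer called. The mixture count of 32 became 17 with the filter at 5 FPKM, which left 15 of the called members untested. With each breed left out, the counts ran from 25 to 27 for tissue classes, 3 to 5 between the muscles, 21 to 23 between heart and muscle, 0 to 0 for origin over 8 tissues, 0 to 1 for origin within tissues (1 without Rongchang, KCNE1 in longissimus dorsi) and 30 to 32 for mixtures. Without breed as a block, the counts were 25 for tissue classes, 3 between the muscles, 21 between heart and muscle and 29 for mixtures. Of all genes, 3449 were called between the muscles with the block and 630 without it, and the cause was not tested. In mixtures KCNU1 lost its call without any 1 of 7 breeds and KCNMA1 without any 1 of Berkshire, Hampshire, Landrace, Piétrain and Meishan. With mixtures counted 52 genes met the rule, and on scaled FPKM 44. Without counts, precision rests on the spread between breeds, and members near 1 FPKM are the least certain.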

Other observations

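A few values fell outside the comparisons. In liver of Berkshire KCNK2, a mechanically gated tandem-pore channel, was 1.22 scaled FPKM, against 0.157 or less in the other 8 livers, and that library had the highest skeletal muscle marker sum in liver, 279.9 against 2.10 to 67.3. KCNK2 in the muscles ranged from 0.138 to 1.88. In adipose of Meishan KCNK5 was 9.004, against 0.602 to 2.61 in the other 8 adipose libraries. The skeletal muscle marker sum of that library was 5116, and KCNK5 in the muscles themselves was 0.343 or less. The part of muscle tissue in the KCNK2 and KCNK5 values was not tested. In ovary of Meishan KCNRG was 2.58, against 0.301 or less in the other 8 ovaries. KCNQ3, which did not meet the rule, averaged 0.809 ± 0.258 in the mixtures (SD, n = 9). DPP6, a partner of KCND pores, was called in ovary and was higher in mixtures by 1.61 on the log2 scale.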
